A study of Mus musculus with 18 samples.

Results

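The 10 genes described here, Dusp4, Dusp5, Dusp6, Spry1, Spry2, Spry4, Etv1, Etv4, Etv5 and Phlda1, are feedback and target genes of the ERK kinase cascade, and were taken by symbol from the 46603 genes measured in 18 RNA sequencing libraries of mouse lung organoids and tumoroids. All 10 were matched by gene identifier and all 10 passed the filter on low counts in every comparison. The rule that chose them uses no expression value, but they were chosen with earlier results of these data known. The cells carried human EGFR with the T790M and L858R changes, knocked in at Col1a1 behind a stop cassette that Cre removes and driven, once active, by a CAG promoter that works in most cell types. Ad-GFP cultures received a control virus that leaves the cassette in place, and Ad-Cre cultures received a Cre virus that activates the transgene.

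The 10 organoid libraries came from tracheal cells (NGFR-negative, called club, and NGFR-positive, called basal) and from distal lung cells (Sca1-negative, called AT2, and Sca1-positive, called BASC for bronchioalveolar stem cell). Club, basal, AT2 and mixed BASC cultures each gave 1 Ad-GFP and 1 Ad-Cre library, which form 4 matched pairs. Alveolar and bronchiolar BASC cultures, which the study picked by shape under the microscope, gave 1 Ad-Cre library each. The 8 tumoroid libraries were cultures of tumors. Of these, 3 came from transplanted AT2 organoids, 3 from mixed BASC organoids and 1 from bronchiolar BASC organoids, all Ad-Cre treated and instilled into nude mice, and 1 came from an autochthonous tumor of a mouse given Ad-Cre. The AT2 tumoroids carry an NGFR-negative sorting label beside their AT2 origin and were placed by origin. Every culture also held lung mesenchymal endothelial support cells, so that each library is a mixture. In such bulk libraries fewer cells of a type and less RNA per cell cannot be told apart.

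ERK is the last kinase of the RAS-RAF-MEK cascade, which EGFR and the FGF receptors switch on. Its activity induces genes that restrain it, among them the dual specificity phosphatases, which remove phosphate from ERK and related kinases, and the Sprouty proteins, which dampen receptor signalling upstream. It also induces the PEA3 group of ETS transcription factors, and in the lung epithelium Etv4 and Etv5 are well known as targets of FGF signalling in the growing distal tips.

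Each organoid library held 27772660 to 97191624 expected counts in all, and each tumoroid library 15327265 to 23355938, so the tumoroid values rest on fewer reads. Levels are given as CPM, the count of a gene at a fixed library total after scaling between libraries by TMM factors, and are comparable between libraries for 1 gene. Levels of different genes are compared only as TPM, which allow for transcript length. Summed over 8 genes, AT2 markers such as Sftpc stood at 683 to 1008 CPM in the 4 tracheal organoids, at 45068 to 53618 CPM in the AT2 and alveolar BASC organoids and at 7119 to 93328 CPM in the tumoroids. Over 6 genes, basal markers such as Krt5 stood at 4319 (Ad-GFP) and 4180 CPM (Ad-Cre) in the club organoids. In the basal organoids they stood at 3880 and 3356 CPM. Club markers, also 6 genes, stood at 5198 and 5152 CPM in the club and 4253 and 2970 CPM in the basal organoids. Among them Scgb1a1 stood at only 1.64 to 4.41 CPM in the tracheal organoids. The names club and basal follow the sort, and these sums did not set them far apart. Summed over 10 genes, mesenchymal markers such as Col1a1 stood at 2201 to 2387 CPM in the tracheal organoids and at 5071 to 8700 CPM in the alveolar organoids. AT2 tumoroid 3 stood apart from the other tumoroids, with 11276 CPM of mesenchymal markers against 597 to 4835 CPM. The 7 endothelial markers summed to at most 1.56 CPM in any organoid and 10.5 CPM in any tumoroid. The human transgene was not analysed here, and the mouse Egfr gene stood at 33.1 to 191 CPM in organoids and 2.48 to 77.8 CPM in tumoroids. The Cre label was not checked here.

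**Figure D1:**
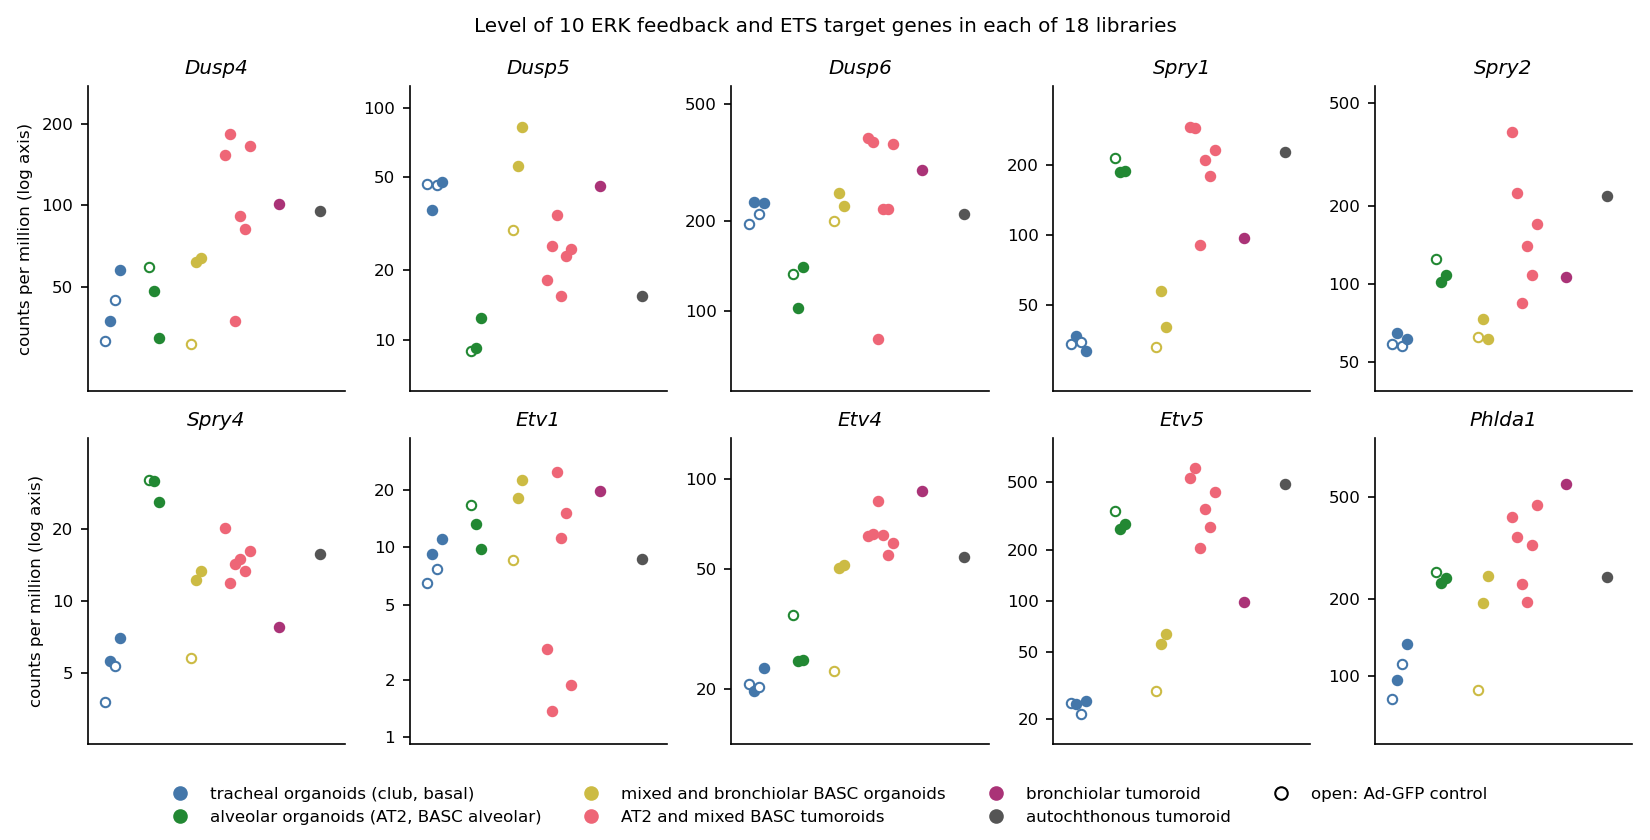
Level of each of the 10 genes in each of the 18 libraries, in CPM on log axes, with 1 point per library and open circles for Ad-GFP controls. Etv5, Spry1 and Spry4 were higher in the 3 alveolar organoids than in the 4 tracheal organoids, Dusp5 was lower, and Etv1 spread over the widest range among the tumoroids, from 1.38 to 25.0 CPM.

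Within each of the 3 families, 1 or 2 members carried most of the transcripts. Dusp6, the phosphatase most specific to ERK, was the most abundant of the 3 phosphatases in all 18 libraries and made up 51.0% to 75.6% of their summed TPM. Dusp5, a nuclear ERK phosphatase, took 13.2% to 18.8% in the tracheal organoids and 4.99% to 7.48% in the alveolar organoids. Dusp4, another nuclear phosphatase, took 11.4% to 17.1% in the tracheal organoids, 17.6% to 30.4% in the alveolar organoids and 22.8% to 32.0% in the tumoroids.

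Among the Sprouty genes, Spry2 made up 64.9% to 67.4% of the summed TPM in the tracheal organoids and 37.5% to 39.1% in the alveolar organoids. Spry1 took 29.2% to 32.5% in the former and 56.4% to 57.3% in the latter, so that Spry2 led in the tracheal and Spry1 in the alveolar organoids. The tumoroids were split: Spry1 led in AT2 tumoroid 2 and the 3 mixed BASC tumoroids, and Spry2 led in AT2 tumoroid 1 (60.3%), AT2 tumoroid 3 (50.5%), the autochthonous tumoroid (52.3%) and the bronchiolar tumoroid. Spry4 never exceeded 5.92%. The bronchiolar BASC organoid, with 33.4% Spry1 and 60.7% Spry2, lay near the tracheal organoids, whereas the alveolar BASC organoid, with 56.9% Spry1, lay with the AT2 organoids.

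Among the PEA3 factors, Etv4 led in the tracheal organoids with 54.9% to 59.1% of the summed TPM, and Etv5 led in the alveolar organoids with 78.5% to 82.3%. In the 6 tumoroids of AT2 and mixed BASC origin Etv5 led with 49.0% to 81.5%, while in the bronchiolar tumoroid Etv4 led with 61.1% against 32.6% for Etv5. Etv1 contributed at most 13.5% in any library. These shares are a description of single libraries and were not tested.

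**Figure D2:**
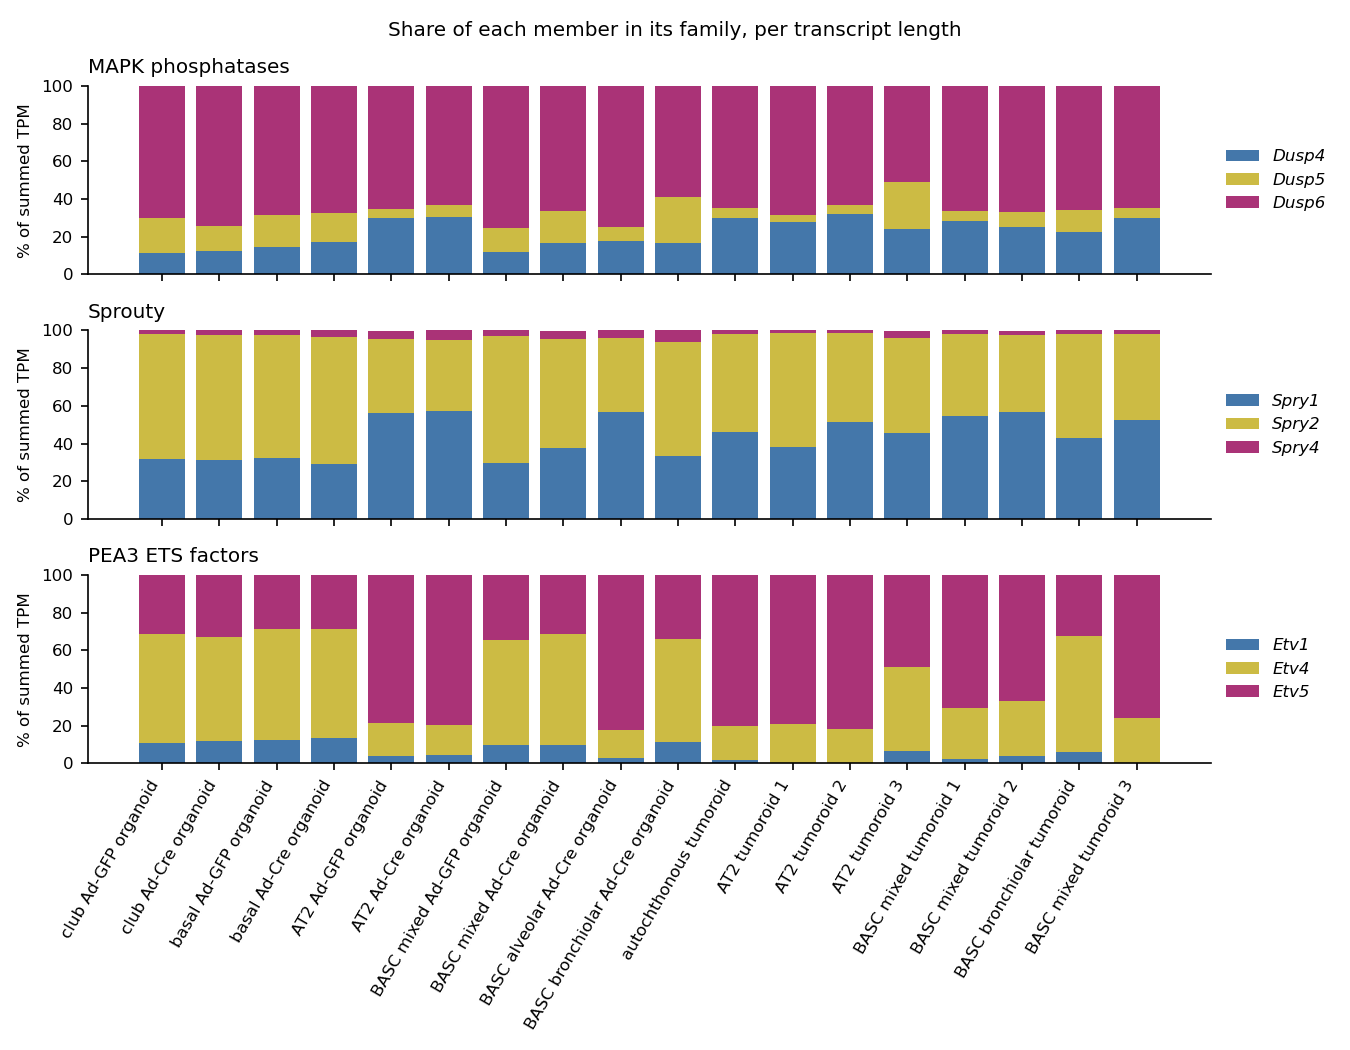
Share of each gene in the summed TPM of its family, in percent, with 1 stacked bar for each of the 18 libraries. Dusp6 led its family in every library, Spry1 led in 7 and Spry2 in 11, and Etv5 led in 10 and Etv4 in 8.

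The first comparison asked whether activation of the transgene changed these genes within matched cultures. It had 8 organoid libraries, with the cell population as a block. All 10 genes had a positive fitted log2 fold change, with a median of 0.20, and none was called changed at an adjusted p below 0.05. Over the 19264 genes tested 51.1% were positive, the median was 0.00 and 0.00% were called by edgeR's quasi-likelihood test. At an unadjusted p below 0.05, 1 of the 10 genes passed and 2.07% of all genes (399), and DESeq2 called 5 genes, none of them among the 10. The pairs did not share a direction. None of the 10 genes was higher in all 4 pairs, against 5.15% of all genes, and none was lower in all 4, against 4.79%.

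The mixed BASC and AT2 pairs moved in opposite directions. In the mixed BASC pair all 10 genes were higher with Ad-Cre, against 50.6% of all genes, and in the AT2 pair 9 of 10 were lower, against 51.2%. For 6 of the 10, the CPM was lower with Ad-Cre in the AT2 pair and higher in the other 3 pairs. By CPM, 7.33% of all genes had this pattern. It did not hold for Etv1 and Spry4 by the deposited TPM. Etv1 in the club pair stood at 4.13 TPM with Ad-GFP and 3.98 TPM with Ad-Cre. Spry4 in the AT2 pair stood at 11.8 TPM with Ad-GFP and 11.94 TPM with Ad-Cre. A difference of at least 2-fold was seen in 5 of the 10 in the mixed BASC pair (16.7% of all genes), and in none in the club (6.91%), basal (3.80%) or AT2 pair (6.80%). Each pair is 1 library against 1, and the intervals given below for pairs cover counting error only.

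**Figure D3:**
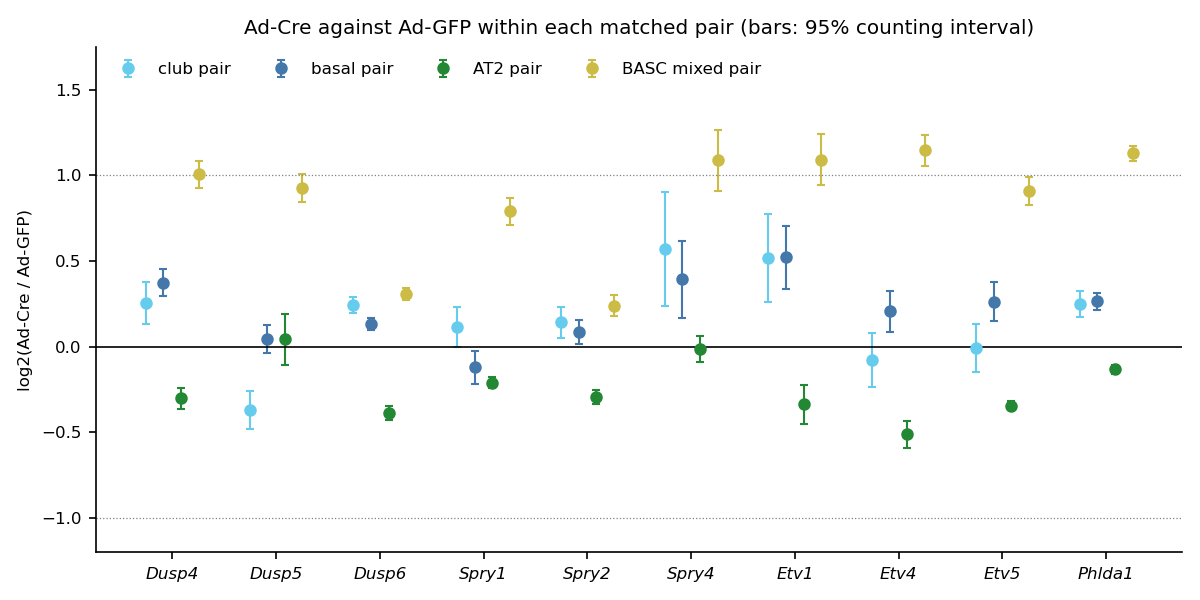
Log2 ratio of Ad-Cre to Ad-GFP within each of the 4 matched pairs for the 10 genes, with bars for 95% counting intervals and dotted lines at a 2-fold difference. All 10 points of the mixed BASC pair lie above 0, between 0.24 and 1.15, and 9 of the 10 points of the AT2 pair lie below it, down to -0.51.

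Of the phosphatases, Dusp4 went from 31.3 to 37.4 CPM in the club pair, from 44.5 to 57.7 CPM in the basal pair, from 59.2 to 48.0 CPM in the AT2 pair and from 30.6 to 61.6 CPM in the mixed BASC pair. Its ratio in the mixed BASC pair was 1.01 on the log2 scale (95% counting interval 0.93 to 1.09), and its fitted change over the pairs was 0.33 (SE 0.205, adjusted p = 0.995). Dusp4 was thus higher with Ad-Cre in 3 of 4 pairs. Dusp5 went from 46.7 to 36.2, from 46.2 to 47.7, from 8.95 to 9.22 and from 29.6 to 56.3 CPM in the same order. Only its club and mixed BASC differences exceeded counting error, and they had opposite signs. Dusp6 went from 197 to 233, from 211 to 232, from 133 to 102 and from 201 to 248 CPM, and its ratios stayed between -0.38 and 0.31 on the log2 scale.

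Of the Sprouty genes, Spry4 had the smallest unadjusted p of the 10 by edgeR (fitted change 0.50, SE 0.192, adjusted p = 0.995). It went from 3.78 to 5.61 CPM in the club pair, from 5.33 to 7.0 in the basal pair, from 32.0 to 31.8 in the AT2 pair and from 5.80 to 12.3 in the mixed BASC pair. The AT2 pair was flat within counting error (-0.09 to 0.07) and the other 3 pairs were higher. Spry1 went from 33.8 to 36.6, from 34.4 to 31.6, from 215 to 186 and from 33.0 to 57.1 CPM. Spry2 went from 58.3 to 64.4, from 57.5 to 61.1, from 125 to 102 and from 62.1 to 73.3 CPM, and its ratios stayed between -0.295 and 0.24 on the log2 scale.

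Of the PEA3 factors, Etv1 was higher by CPM with Ad-Cre in each pair but that of AT2 cells, though not by TPM in the club pair. It went from 6.48 to 9.29 CPM in the club pair, from 7.72 to 11.1 in the basal pair, from 16.8 to 13.3 in the AT2 pair and from 8.56 to 18.2 in the mixed BASC pair, and the fitted change was 0.45 (SE 0.237, adjusted p = 0.995). Etv4 showed the largest difference of the 10 genes in the mixed BASC pair, from 22.9 to 50.6 CPM (log2 ratio 1.15, 95% counting interval 1.06 to 1.24), and also the largest fall in the AT2 pair, from 35.3 to 24.8 CPM (-0.51). In the club pair it stood at 20.6 and 19.6 CPM, within counting error, and in the basal pair at 20.2 and 23.3 CPM. Etv5 went from 24.8 to 24.7, from 21.4 to 25.7, from 338 to 267 and from 29.4 to 55.3 CPM. Phlda1, a gene of the pleckstrin homology-like family that ERK signalling induces, went from 81.2 to 96.5, from 111 to 133, from 253 to 231 and from 87.9 to 192 CPM.

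Markers also moved within the mixed BASC pair. With Ad-Cre, AT2 markers went from 1310 to 3216 CPM, mesenchymal markers from 2235 to 4922 CPM, ciliated markers from 1687 to 468 CPM and basal markers from 3067 to 2071 CPM, and their part in the differences of the 10 genes was not tested. In the AT2 pair AT2 markers went from 53618 to 45068 CPM and mesenchymal markers from 8445 to 8700 CPM. Without the mixed BASC pair the fitted changes of 6 genes turned negative: Dusp5 (-0.09), Dusp6 (-0.002), Spry1 (-0.07), Spry2 (-0.02), Etv4 (-0.13) and Etv5 (-0.03).

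An interaction term asked whether the Ad-Cre difference of the distal pairs (AT2, mixed BASC) differed from that of the tracheal pairs. None of the 10 genes was called and 0.00% of all genes were. At an unadjusted p below 0.05, none of the 10 and 4.63% of all genes (891) passed, and DESeq2 called 140 genes, none of them among the 10. The term was largest for Dusp5 (0.65, SE 0.342, adjusted p = 1). It rested on which distal pair was kept. With the AT2 pair left out, so that the mixed BASC pair alone stood for the distal lung and the spread came from the 2 tracheal pairs only, 6 of the 10 were called (Dusp4 0.69, Dusp5 1.08, Spry1 0.80, Etv4 1.08, Etv5 0.78 and Phlda1 0.87 on the log2 scale) among 2208 genes. With the mixed BASC pair left out, none of the 10 was called among 771 genes and the terms of Dusp4, Spry1, Etv4, Etv5 and Phlda1 were negative. These calls rest on a single distal pair, whose own differences are those given above, and are no evidence about distal cultures in general. The share of all genes called in these runs is not given here, so the counts are not read as a result about the 10. The term of Dusp4 was also just below 0 (-0.02) without the club pair.

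Etv5, Spry1, Spry4, Dusp5, Phlda1 and Dusp6 had their largest fitted differences between lineages. Dusp4, Spry2, Etv1 and Etv4 had larger ones in the tumoroid comparisons below. Alveolar organoids (AT2 with each virus and alveolar BASC with Ad-Cre, n = 3) were compared with tracheal organoids (club and basal with each virus, n = 4), since the series asks how the cell of origin matters. By edgeR's quasi-likelihood test 7 of the 10 genes were higher and 2 lower in the alveolar organoids, against 67.8% of all 18232 genes called in either direction. The median log2 fold change was 0.75 for the 10 genes and -0.10 for all genes. The 2 sets of libraries did not overlap for 8 of the 10, against 68.5% of all genes. A count of 9 of 10 called is therefore read against a comparison in which most genes were called. The study split each sorted population into aliquots for the 2 viruses, so the Ad-GFP and Ad-Cre cultures of a population are not independent. The fit nevertheless counted each culture as a sample, without a block. The labels also do not say which cultures came from separate animals, so these p-values measure the spread between these cultures only.

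Promoter sequences of genes on both sides of this contrast are given here, from 250 bases before to 50 bases after an annotated start. They were read from RefSeq on GRCm38.p6, whose table held 8 promoters of 6 of the 10 genes. Capitals mark CCGGAA and AGGAAG, cores that ETS factors can bind, on either strand. Spry1 (chr3:37639697-37639996, plus strand), Spry2 (chr14:105896770-105897069, minus strand) and Etv5 (chr16:22438319-22438618, minus strand, the second of its 2 listed starts) were higher in alveolar organoids. Dusp5 (chr19:53528895-53529194, plus strand) and Dusp6 (chr10:99262981-99263280, plus strand) were higher in tracheal organoids.
Spry1: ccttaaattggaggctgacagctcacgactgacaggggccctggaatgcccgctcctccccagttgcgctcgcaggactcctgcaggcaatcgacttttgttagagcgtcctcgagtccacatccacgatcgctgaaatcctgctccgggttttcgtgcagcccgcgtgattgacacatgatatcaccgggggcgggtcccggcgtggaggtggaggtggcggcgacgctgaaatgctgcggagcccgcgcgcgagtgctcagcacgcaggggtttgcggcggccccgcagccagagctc
Spry2: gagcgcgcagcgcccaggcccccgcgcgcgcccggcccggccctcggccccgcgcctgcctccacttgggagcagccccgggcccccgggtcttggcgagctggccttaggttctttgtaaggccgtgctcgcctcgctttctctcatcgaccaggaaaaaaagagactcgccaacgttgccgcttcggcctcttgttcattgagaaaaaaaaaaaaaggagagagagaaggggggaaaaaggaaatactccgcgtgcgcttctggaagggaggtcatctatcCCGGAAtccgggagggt
Etv5: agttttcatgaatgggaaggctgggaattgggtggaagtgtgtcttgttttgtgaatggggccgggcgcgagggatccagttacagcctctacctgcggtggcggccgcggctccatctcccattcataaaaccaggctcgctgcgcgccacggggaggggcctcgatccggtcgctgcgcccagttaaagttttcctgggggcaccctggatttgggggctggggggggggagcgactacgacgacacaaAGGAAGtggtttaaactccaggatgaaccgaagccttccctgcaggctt
Dusp5: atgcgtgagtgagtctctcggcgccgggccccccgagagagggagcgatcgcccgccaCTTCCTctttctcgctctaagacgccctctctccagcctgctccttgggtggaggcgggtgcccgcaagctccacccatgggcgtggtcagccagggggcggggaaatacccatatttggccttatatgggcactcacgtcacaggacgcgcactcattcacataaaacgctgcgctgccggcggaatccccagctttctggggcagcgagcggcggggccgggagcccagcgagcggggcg
Dusp6: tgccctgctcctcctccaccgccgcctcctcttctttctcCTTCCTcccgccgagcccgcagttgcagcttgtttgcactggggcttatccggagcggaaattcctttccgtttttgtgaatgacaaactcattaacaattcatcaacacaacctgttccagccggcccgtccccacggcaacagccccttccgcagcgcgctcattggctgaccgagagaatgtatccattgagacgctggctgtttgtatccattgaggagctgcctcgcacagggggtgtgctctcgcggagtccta
CCGGAA occurred in 1 of the 8 promoters of these genes, that of Spry2, and in 14.9% of 32817 promoters of the same length. AGGAAG occurred in 4 of the 8, those of Dusp5, Dusp6, Etv1 and Etv5 at 1 start each, and in 35.4% of all. The AP-1 motif TGANTCA occurred in none of the 8 and in 7.81% of all, and TGACG, contained in the cAMP response element, in 1 of the 8 (Dusp5) and in 20.8% of all. No CCGGAA overlapped an AGGAAG. These matches are letters in a window and do not separate the genes that were higher from those that were lower.

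Etv5, on chr16:22381309-22439719, showed the largest difference. It stood at 338, 267 and 282 CPM in the AT2 Ad-GFP, AT2 Ad-Cre and alveolar BASC organoids and at 24.8, 24.7, 21.4 and 25.7 CPM in the club Ad-GFP, club Ad-Cre, basal Ad-GFP and basal Ad-Cre organoids, 3.62 higher on the log2 scale (SE 0.108, adjusted p = 4.2e-07). The sets were far apart and the spread within each was small. Spry1 stood at 215, 186 and 188 CPM against 33.8, 36.6, 34.4 and 31.6 CPM (2.53, SE 0.0794, adjusted p = 4.5e-07). Spry4, with 32.0, 31.8 and 26.0 CPM against 3.78, 5.61, 5.33 and 7.0 CPM, was higher by 2.46 (SE 0.19, adjusted p = 1.67e-05).

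Phlda1 and Spry2 were higher by less. Phlda1 stood at 253, 231 and 240 CPM against 81.2, 96.5, 111 and 133 CPM (1.19, SE 0.153, adjusted p = 0.000227), and Spry2 at 125, 102 and 108 CPM against 58.3, 64.4, 57.5 and 61.1 CPM (0.89, SE 0.0835, adjusted p = 4.38e-05). Neither overlapped between the sets. Etv4 (35.3, 24.8 and 24.9 CPM against 20.6, 19.6, 20.2 and 23.3 CPM) and Etv1 (16.8, 13.3 and 9.80 CPM against 6.48, 9.29, 7.72 and 11.1 CPM) passed narrowly, with log2 fold changes of 0.43 (SE 0.139, adjusted p = 0.023) and 0.62 (SE 0.228, adjusted p = 0.0407). The Etv1 levels overlapped. Both calls were lost on leaving out the AT2 Ad-GFP organoid (Etv4 0.25, adjusted p = 0.0537, and Etv1 0.42, adjusted p = 0.146), and also on leaving out the club Ad-GFP (0.43 and 0.51), club Ad-Cre (0.40 and 0.66) or basal Ad-GFP (0.42 and 0.57) organoid. The call of Etv1 was lost without the AT2 Ad-Cre organoid as well (0.62, adjusted p = 0.0826).

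Of the phosphatases 2 were lower and 1 was not called. Dusp5 stood at 8.95, 9.22 and 12.4 CPM in the alveolar organoids and at 46.7, 36.2, 46.2 and 47.7 CPM in the tracheal organoids (-2.12 on the log2 scale, SE 0.154, adjusted p = 1.22e-05). Dusp6 stood at 133, 102 and 141 CPM against 197, 233, 211 and 232 CPM (-0.80, SE 0.124, adjusted p = 0.000634). Both were lower in every alveolar organoid than in any tracheal one. Dusp4 overlapped, with 59.2, 48.0 and 32.4 CPM against 31.3, 37.4, 44.5 and 57.7 CPM (0.12, SE 0.248, adjusted p = 0.68), and its sign turned without the AT2 Ad-GFP organoid (-0.09). All 10 mesenchymal markers tested were also higher in the alveolar organoids, and their part in these differences was not tested.

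**Figure D4:**
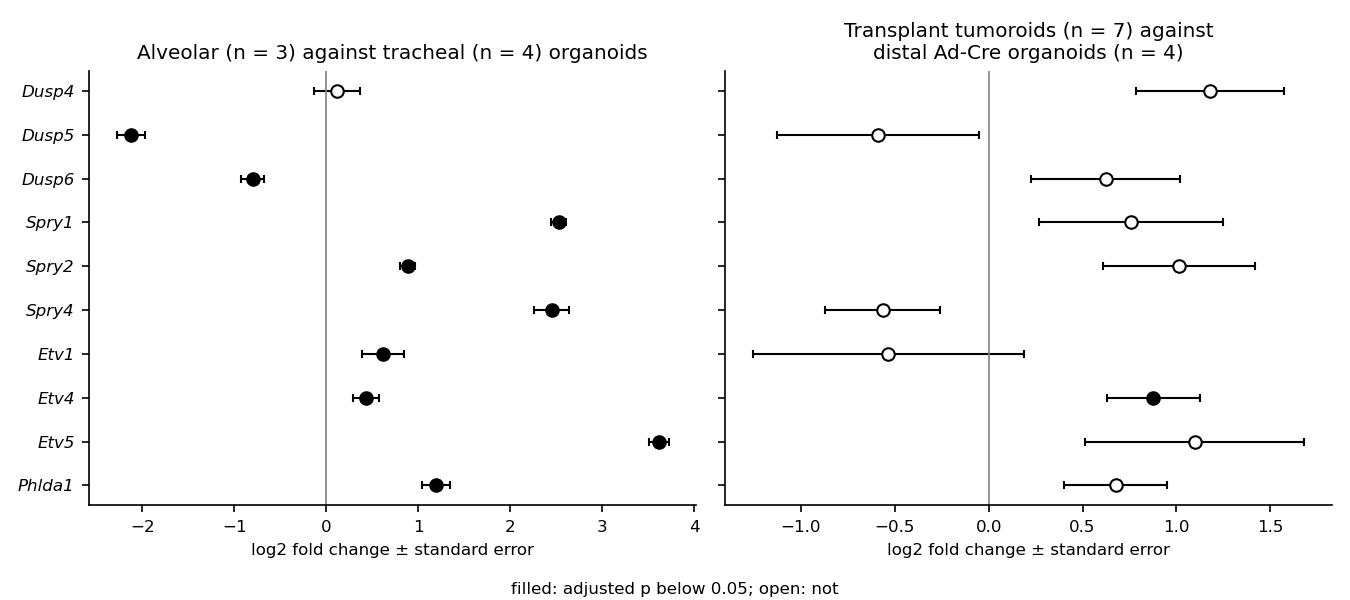
Fitted log2 fold changes with their standard errors for the 10 genes in alveolar against tracheal organoids (left) and in transplant tumoroids against distal Ad-Cre organoids (right), on separate horizontal scales, with filled circles for an adjusted p below 0.05. On the left 9 genes are filled, from -2.12 for Dusp5 to 3.62 for Etv5, and on the right only Etv4 is filled, at 0.88.

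The alveolar and bronchiolar BASC organoids, both Ad-Cre treated, gave a comparison of shape within 1 sorted population, with 1 library each and hence no test. A difference of at least 2-fold was seen in 5 of the 10 genes, against 25.8% of 16167 genes. Etv5 stood at 282 CPM in the alveolar and 63.8 CPM in the bronchiolar organoid, and Spry1 at 188 and 40.1 CPM. Dusp5 stood at 12.4 and 82.7 CPM, Etv1 at 9.80 and 22.7 CPM and Etv4 at 24.9 and 51.7 CPM. Etv5, Spry1 and Dusp5 thus differed in the same direction as between alveolar and tracheal organoids, and Etv1 and Etv4 in the opposite direction. Phlda1 was level, at 240 and 244 CPM. The alveolar BASC organoid is also one of the 3 alveolar organoids above.

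The next comparison set the 7 transplant tumoroids against the 4 distal Ad-Cre organoids. None of the 7 is labelled as coming from the alveolar BASC organoids. The mixed, alveolar and bronchiolar BASC organoids came from the same sorted population, and the fit counted each as a sample. Etv4 alone was called higher, 1 of 10 against 19.3% of 16167 genes, and Etv4 alone did not overlap between the groups, against 15.6% of all genes. The median log2 fold change of the 10 genes was 0.72, and that of all genes was -0.01. All tumoroid libraries were made and sequenced on another platform (BGI, DNBSEQ) than the organoid libraries (TruSeq, HiSeq), so platform and transplantation cannot be told apart. Lineage also differed between the groups, and the fit had no term for it. AT2 markers summed to 45068 and 49157 CPM in the AT2 and alveolar BASC organoids. They summed to 3216 and 3064 CPM in the mixed and bronchiolar BASC organoids. In the tumoroids of AT2 and mixed BASC origin the sum was 17874 to 93328 CPM, and in the bronchiolar tumoroid 7119 CPM.

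Etv4 ran from 55.8 to 91.2 CPM with a median of 64.9 in the tumoroids and stood at 24.8, 24.9, 50.6 and 51.7 CPM in the AT2, alveolar BASC, mixed BASC and bronchiolar BASC organoids, so that the fitted log2 difference was 0.88 (SE 0.248, adjusted p = 0.0309). Every tumoroid was above every organoid, while the organoids themselves formed a low and a high pair. The call was lost without the AT2 Ad-Cre organoid (0.72, adjusted p = 0.0787) or without the alveolar BASC organoid (0.72, adjusted p = 0.0845). Dusp4 ran from 37.1 to 184 CPM (median 101) against 48.0, 32.4, 61.6 and 63.8 CPM (1.18, SE 0.394, adjusted p = 0.0572). It was above all 4 organoids in 6 of 7 tumoroids, and it was called without AT2 tumoroid 3 (1.33, adjusted p = 0.0121) and by DESeq2 (adjusted p = 0.0156).

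Spry2 ran from 83.9 to 387 CPM (median 140) against 102, 108, 73.3 and 61.2 CPM in the same organoids (1.02, SE 0.406, adjusted p = 0.102 by edgeR and 0.0471 by DESeq2). Etv5 ran from 97.8 to 606 CPM (median 350) against 267, 282, 55.3 and 63.8 CPM (1.10, SE 0.584, adjusted p = 0.21), and Spry1 from 90.6 to 293 CPM (median 212) against 186, 188, 57.1 and 40.1 CPM (0.76, SE 0.491, adjusted p = 0.305). In these 3 genes the AT2 and alveolar BASC organoids lay inside the tumoroid range and the mixed and bronchiolar BASC organoids below it. Phlda1 ran from 195 to 562 CPM (median 348) against 231, 240, 192 and 244 CPM (0.68, SE 0.274, adjusted p = 0.106), and was called only without mixed BASC tumoroid 1 (0.78, adjusted p = 0.0468). Dusp6 ran from 80.0 to 382 CPM (median 297) against 102, 141, 248 and 226 CPM (0.62, SE 0.396, adjusted p = 0.295).

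The direction was negative for 3 genes. Spry4 ran from 7.77 to 20.3 CPM (median 14.4) against 31.8, 26.0, 12.3 and 13.4 CPM (-0.56, SE 0.307, adjusted p = 0.22). With the 6 alveolar tumoroids set against the AT2 and alveolar BASC organoids alone, each of those organoids was above each tumoroid and Spry4 was called lower (-0.93, adjusted p = 0.0377). Dusp5 ran from 15.4 to 45.9 CPM (median 24.6) against 9.22, 12.4, 56.3 and 82.7 CPM (-0.59, SE 0.54, adjusted p = 0.476), and turned positive in the alveolar cultures alone (1.12, adjusted p = 0.0672) and without the bronchiolar BASC organoid (0.04). Etv1 ran from 1.38 to 25.0 CPM (median 11.2) against 13.3, 9.80, 18.2 and 22.7 CPM (-0.53, SE 0.723, adjusted p = 0.642). The sign for Dusp5 thus changed with the organoids that were included.

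Among the 8 tumoroids, the 10 genes varied widely between tumoroids of the same origin. AT2 tumoroids were compared with mixed BASC tumoroids (n = 3 each) within 1 fit of all 8, and none of the 10 was called, against 0.00% of 17804 genes. At an unadjusted p below 0.05, none of the 10 and 1.15% of all genes (204) passed, and DESeq2 called 15 genes, none of them among the 10. The difference was largest for Spry2, at 387, 223 and 83.9 CPM in the AT2 tumoroids against 140, 108 and 170 CPM (0.73, SE 0.526, adjusted p = 1). A p above the threshold does not show that the 10 genes were alike in these tumoroids. None of the 10 was called between the autochthonous tumoroid and the 6 alveolar tumoroids (0.00% of all genes called, and at an unadjusted p below 0.05 none of the 10 and 3.84%, or 684, of all genes, while DESeq2 called 57 genes, none of them among the 10). It lay outside their range for 2 of the 10, against 30.5% of all genes. These were Dusp5, at 15.37 CPM against 15.44 to 34.4 CPM (-0.60, SE 0.448, adjusted p = 1), and Etv4, at 55.0 against 55.8 to 84.9 CPM, both just below the lowest.

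The bronchiolar tumoroid lay outside the alveolar range for some of the 10 genes, and no difference passed edgeR's test in the main fit. None of the 10 was called against the 6 alveolar tumoroids, where 0.663% of all genes were. At an unadjusted p below 0.05, 2 of the 10 passed, Etv5 and Dusp5, against 9.96% of all genes. The tumoroid lay outside the alveolar range for 5 of the 10, against 37.2% of all genes. With only 10 genes, both counts are not far from the shares of all genes and are not read as a result about the 10. Etv5 stood at 97.8 CPM in the bronchiolar tumoroid and at 532, 606, 206, 350, 272 and 439 CPM in the AT2 and mixed BASC tumoroids (-2.02, SE 0.67, adjusted p = 0.353 by edgeR and 0.0354 by DESeq2). Without AT2 tumoroid 3 it was called by edgeR too (-2.20, adjusted p = 0.0493). Dusp5, at 45.9 CPM against 18.1, 25.4, 34.4, 15.4, 22.9 and 24.6 CPM, was higher than in each of the 6 (0.97, SE 0.394, adjusted p = 0.486). Phlda1 (562 CPM against at most 462), Etv4 (91.2 CPM against at most 84.9) and Spry4 (7.77 CPM against at least 11.9) were the other 3. A single tumoroid stands for the bronchiolar origin, and the fit assumes that it varies like the others.

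Dusp4, Dusp6 and Etv1 varied with the mesenchymal markers across the tumoroids. Dusp4 stood at 184, 166 and 153 CPM in AT2 tumoroid 2, mixed BASC tumoroid 3 and AT2 tumoroid 1, which had 597, 1001 and 1117 CPM of mesenchymal markers, and at 37.1 CPM in AT2 tumoroid 3, which had 11276 CPM. Dusp6 stood at 370, 364 and 382 CPM in the first 3 and at 80.0 CPM in AT2 tumoroid 3. Etv1 ran the other way, at 1.38, 1.89 and 2.91 CPM in the first 3 and at 25.0 CPM in AT2 tumoroid 3.

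As a description over the 8 tumoroids, Pearson's r between log2 CPM and the log2 of the mesenchymal marker sum was -0.97 for Dusp4, -0.92 for Dusp6 and 0.89 for Etv1 (Spearman's rho -0.976, -0.905 and 0.833). Without AT2 tumoroid 3 it was -0.97, -0.93 and 0.88 (n = 7), and without the 2 tumoroids farthest from the median marker sum -0.96, -0.95 and 0.81 (n = 6). Over all 8 it was -0.69 for Spry1, -0.69 for Spry2, -0.57 for Phlda1 and -0.49 for Etv5, and closer to 0 for Dusp5 (0.12), Etv4 (0.20) and Spry4 (-0.03). Without AT2 tumoroid 3 it was -0.46 for Spry1, -0.53 for Spry2, -0.44 for Phlda1 and -0.405 for Etv5. Against the AT2 marker sum, r was 0.96 for Etv5, 0.88 for Spry1, 0.85 for Spry2 and 0.78 for Spry4. It was 0.47 for Dusp4, 0.33 for Dusp6, -0.29 for Phlda1, -0.66 for Etv1, -0.715 for Etv4 and -0.84 for Dusp5. Without the 2 tumoroids farthest from the median AT2 marker sum, Spry4 fell to 0.03 (n = 6). Etv5 then stood at 0.91, Spry1 at 0.79, Spry2 at 0.955 and Dusp5 at -0.645. Both sums and the gene levels come from the same libraries, share their scaling and depend on the cell mixture, and 2 title numbers are shared between tumoroids without a statement on whether they share a mouse. Among the organoids the relation for Dusp4 did not appear in the same form: the tracheal organoids, at 2201 to 2387 CPM of mesenchymal markers, had 31.3 to 57.7 CPM of Dusp4, below the bronchiolar tumoroid with 101 CPM at a marker sum of 2138 CPM.

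**Figure D5:**
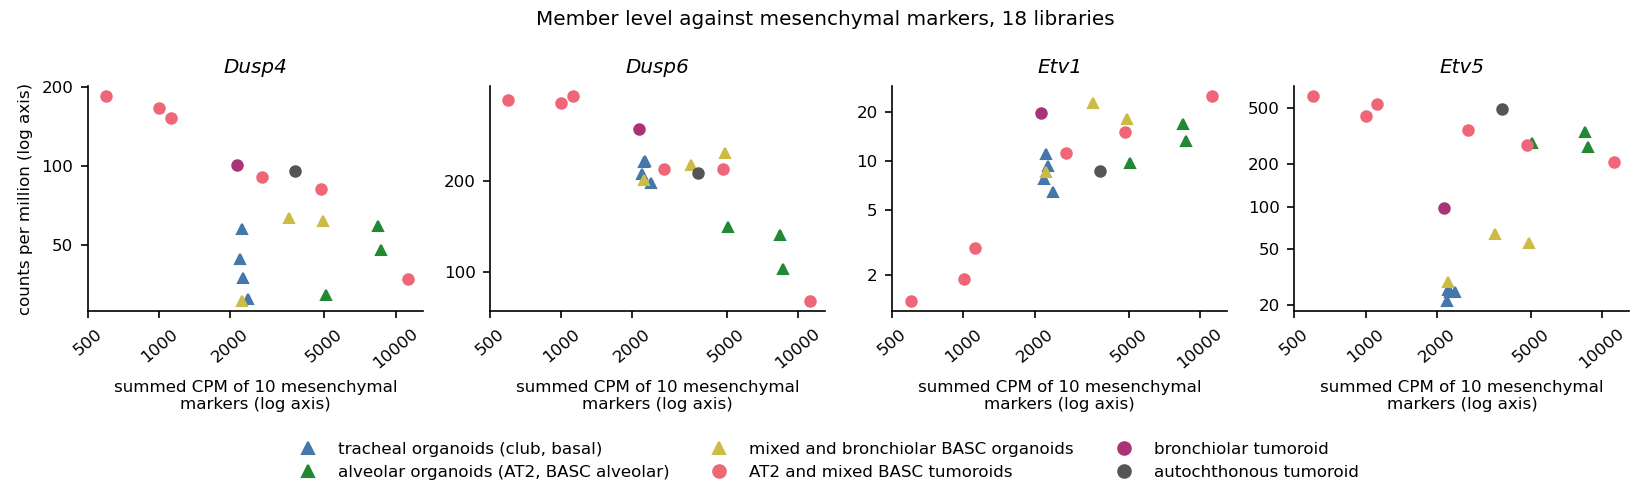
Level of Dusp4, Dusp6, Etv1 and Etv5 against the summed level of 10 mesenchymal markers, both in CPM on log axes, with circles for the 8 tumoroids and triangles for the 10 organoids. Among tumoroids Dusp4 and Dusp6 fall and Etv1 rises from left to right, and AT2 tumoroid 3 is the rightmost circle at 11276 CPM.

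Other genes of the pathway were taken from hand-written lists. In the Ad-Cre comparison none of the genes of 7 further lists was called: 23 cascade genes, 7 other MAPK phosphatases, 12 other feedback genes, 14 immediate early genes, 3 further genes of a MAPK activity score, 18 other ETS factors and 4 FGF receptors. Of 23 cascade genes 10 were higher and 5 lower in alveolar than in tracheal organoids, a comparison in which 67.8% of all genes were called, with Shc1, an adaptor, at 1.12 (SE 0.0808) and the receptor gene Erbb2 at -1.44 (SE 0.114). All 3 FGF receptor genes tested differed, Fgfr1 at 2.43 (SE 0.146), Fgfr2, the receptor of lung epithelium for FGF ligands from the mesenchyme, at 1.95 (SE 0.149) and Fgfr3 at -2.34 (SE 0.356). Fgfr2 stood at 433 to 527 CPM in alveolar and 96.1 to 148 CPM in tracheal organoids.

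Of 12 other feedback genes 5 were higher and 4 lower in the alveolar organoids, among them Spred3, a relative of the Sprouty genes, at 1.90 (SE 0.159) and Lrig1, a negative regulator of EGFR family receptors, at -2.48 (SE 0.131). Of 18 other ETS factors 5 were higher and 10 lower, with the epithelial factor Elf3 at -2.76 (SE 0.146) and Ets2 at -1.79 (SE 0.066). Erg, at 0 CPM in all 4 tracheal organoids, stood at 0.705 to 3.12 CPM in the alveolar organoids. Of 14 immediate early genes 3 were higher and 3 lower, with Egr3 at 2.87 (SE 0.281) and Myc at -1.75 (SE 0.0965). Of the 7 other MAPK phosphatases only Dusp7 was called, at -0.26 (SE 0.0979), and of the 3 further score genes Epha4 (-1.02, SE 0.112) and Epha2 (-0.83, SE 0.102) were. All values are log2 fold changes with adjusted p below the threshold by edgeR. The lists with the most genes were called in both directions, and against the 67.8% of all genes called these counts are not a result about the lists.

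Between tumoroids and distal Ad-Cre organoids, 2 of 23 cascade genes were higher and 2 lower, and 1 of 17 other ETS factors was higher and 2 were lower, where 19.3% of all genes were called. Map2k2, which encodes the ERK kinase MEK2, was higher (0.87, SE 0.157, adjusted p = 0.00434) and Braf was lower (-0.77, SE 0.131, adjusted p = 0.00346). The ubiquitin ligase genes Cbl (-1.12, SE 0.298) and Cblb (-0.78, SE 0.176) were among 3 of 12 other feedback genes that were lower, and none of these was higher. Dusp9, another ERK phosphatase, was the 1 of 7 other phosphatases called (2.98, SE 0.652, adjusted p = 0.0102), at 4.39 to 32.1 CPM in tumoroids and 1.41 to 4.12 CPM in organoids. Fosb and Srf were higher among 14 immediate early genes. Within the tumoroids no gene of these 7 lists was called in any of the 3 contrasts.

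The 10 genes did not form 1 unit. Correlated with the mean of the other 9 over the 18 libraries, Phlda1 (Pearson's r = 0.91), Dusp4 (0.81) and Etv4 (0.81) were most alike, and Dusp5 (-0.45) and Etv1 (-0.40) ran against the rest. A mean of at least 1 CPM was reached by 14688 genes, the 10 included. Among the others, the levels most like the mean of the 10 were those of Rai14 (r = 0.95), Rgs4 (r = 0.95) and Gm8174 (r = 0.95) over 18 libraries. These coefficients are a description across libraries that differ in lineage, stage and platform.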

How the data were processed

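Per the submitters' processing notes and the study's methods, the authors trimmed reads with Trimmomatic 0.39, aligned them with STAR 2.6.1d to GRCm38 and deposited, for each library and gene, the expected count of RSEM 1.3.2, not normalized between libraries, and RSEM's TPM, which is scaled to transcript length and library. Of 46603 genes, 46091 were matched to symbols by GENCODE vM21 and 512 were not.

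Expected counts were rounded and fitted in R 4.3.3 with edgeR 4.0.16 (quasi-likelihood test, filterByExpr, TMM factors over all 18 libraries), with Benjamini-Hochberg adjustment over all genes tested and a threshold of 0.05 on the adjusted p. CPM use the same TMM factors. For log2 CPM the prior count was 2. Ad-Cre was compared with Ad-GFP with cell population as a block, because the study split each sorted population into aliquots for the 2 viruses. Counting intervals within a pair are 95% normal intervals of the log2 ratio of the rounded counts, and cover counting error only. The deposited TPM were used for shares within families and, as log2(TPM + 1) with limma 3.58.1, as an alternative. Other alternatives were DESeq2 1.42.0, other scalings, no filter, no block, virus as a term, subsets and leaving out each library or pair. The fits were also run on simulated data. The outcome of those runs is not given here and is not used as support for the fits.

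The members, the other gene lists, the tests and the rule for named genes were chosen with earlier results of these data known. Named genes are the 10 members, for each other list and fit at most 2 called genes per direction with the largest fold change, and the 3 genes most correlated with the mean of the standardised log2 CPM of the members. Not all genes that the rule picks are printed. Groups follow the sample labels. Each tumoroid entered as its own sample, also where titles share a number, and the tests assume that these are independent.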

Additional observations from a re-analysis of the deposited data

Results flagged for a closer look

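Dixon's test was run within the tracheal organoids (n = 4), the distal Ad-Cre organoids (n = 4) and the alveolar tumoroids (n = 6). At the 95% level it marked 2 of 30 sets of libraries and genes, where chance marks about 1 in 20. Dusp5 in the club Ad-Cre organoid, at 36.2 CPM, lay apart from the other 3 tracheal organoids, at 46.2 to 47.7 CPM. Dusp6 in AT2 tumoroid 3, at 80.0 CPM, lay apart from the other 5 alveolar tumoroids, at 220 to 382 CPM, and the same tumoroid had the highest sum of mesenchymal markers, 11276 CPM.

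For 6 genes the log2 ratio of Ad-Cre to Ad-GFP, taken from CPM, was negative in the AT2 pair and positive in the club, basal and mixed BASC pairs. In the AT2 pair it was -0.301 for Dusp4, -0.384 for Dusp6, -0.295 for Spry2, -0.013 for Spry4, -0.335 for Etv1 and -0.132 for Phlda1. The difference between the AT2 pair and the others was not tested, since each population has 1 pair, and the value for Spry4 lies within counting error. By the deposited TPM, the sign was the other way for Etv1 in the club pair and for Spry4 in the AT2 pair.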

How the results depend on the processing

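The calls of Etv5, Spry1, Spry4, Phlda1, Spry2, Dusp5 and Dusp6 between alveolar and tracheal organoids held in every alternative run. Those of Etv1 and Etv4 were lost with limma on log2(TPM + 1) (0.29 and 0.31), and that of Etv1 also with virus as a term (0.62, adjusted p = 0.0582). In the paired Ad-Cre fit, which kept 0 calls, leaving out the replicate block turned Spry1 to -0.022, Spry2 to -0.011 and Etv5 to -0.15. The distal cultures alone, without the pairing, gave -0.073, -0.12 and -0.14 for these, and the tracheal cultures alone gave -0.15 for Dusp5. With 1 pair left out, fitted changes ran from -0.093 to 0.34 for Dusp5, from -0.002 to 0.23 for Dusp6, from -0.073 to 0.26 for Spry1, from -0.023 to 0.16 for Spry2, from -0.13 to 0.43 for Etv4 and from -0.034 to 0.39 for Etv5. The distal against tracheal term, with 1 pair left out, ran from -0.62 to 0.69 for Dusp4, from -0.20 to 0.80 for Spry1, from -0.58 to 1.08 for Etv4, from -0.48 to 0.78 for Etv5 and from -0.39 to 0.87 for Phlda1, and called 0 to 2208 genes and 0 to 6 of the 10. Dusp4 between alveolar and tracheal organoids ran from -0.088 to 0.32 with 1 organoid left out.

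DESeq2 called 5 genes in the paired comparison, 140 for the interaction, 15 between AT2 and mixed BASC tumoroids, 694 for the bronchiolar and 57 for the autochthonous tumoroid, and 3 of the 10 between tumoroids and organoids and 1 for the bronchiolar tumoroid. Without the filter the interaction had 13 calls, the bronchiolar tumoroid 187 and the autochthonous tumoroid 1. Limma gave the bronchiolar tumoroid 274 calls, and summing tumoroids with a shared number gave it 187.

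Between tumoroids and organoids, alveolar cultures alone had 1586 calls, 2 of them among the 10, with Dusp5 turned to 1.12. Summing gave 2 of the 10 (Dusp4 at 1.19, adjusted p = 0.00966). With 1 library left out, 1938 (without the bronchiolar BASC organoid) to 3718 genes and 0 to 2 of the 10 were called, and Dusp5 ran from -0.92 to 0.039. The bronchiolar contrast with 1 tumoroid left out called 0 to 360 genes (0 without mixed BASC tumoroid 1 or 3, 2, 32 and 16 without AT2 tumoroid 1, AT2 tumoroid 2 and mixed BASC tumoroid 2, and 360 without AT2 tumoroid 3) and 0 to 1 of the 10, with Dusp6 at -0.094 to 0.28. The cause of these changes was not tested. Counts of calls among the 10 in the alternative runs are given without the share of all genes tested. They are not read as a result about the 10 genes. Every organoid condition is 1 library, and 1 bronchiolar tumoroid stands for its origin.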
